A study of Homo sapiens with 12 samples.

Results

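The mRNAs examined here encode the machinery that copies and transcribes mitochondrial DNA. The set held 10 nuclear genes, chosen by symbol: the transcription factors TFAM, TFB1M and TFB2M, the RNA polymerase POLRMT, the helicase TWNK, the DNA polymerase subunits POLG and POLG2, the single-stranded DNA binding protein SSBP1, the RNA-binding protein LRPPRC and the transcriptional coactivator PPARGC1A. They were 10 of 58735 genes in the count table, and all 10 were among the 16646 genes that passed the filter on low counts. Their levels were set beside those of the 37 genes of the mitochondrial chromosome.

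The cells were C4.2B, a castration-resistant prostate cancer line derived from LNCaP cells. Polyadenylated RNA was sequenced in 4 arms of 3 libraries each: vehicle (DMSO), the AKT inhibitor ipatasertib at 0.25 µM (AKTi), the EZH2 inhibitor tazemetostat at 1 µM (EZH2i), and both inhibitors at these doses (combination). Cells of the EZH2i and combination arms had received tazemetostat for 6 days before the second agent was due, and every arm was moved to charcoal-stripped serum at that point and collected 24 h later. Exposure to tazemetostat was therefore longer than exposure to ipatasertib. All arms were 1 cell line in culture, and each library came from its own plate, so the p-values measure the spread between plates and libraries. In bulk RNA of this kind, fewer cells of a type and less RNA per cell cannot be told apart.

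Human mitochondrial DNA is a small circle that encodes 13 respiratory chain proteins, 2 ribosomal RNAs and 22 transfer RNAs. It is packed by TFAM, which also bends the promoter DNA so that POLRMT and TFB2M can begin transcription. Long transcripts of both strands are then cut into single RNAs, and LRPPRC, with its partner SLIRP, keeps the mRNAs stable and polyadenylated. Replication uses TWNK to unwind the circle, SSBP1 to cover the exposed strand, and POLG with its accessory subunit POLG2 to copy it.

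Sequences of the promoters involved are given first. The end of the mitochondrial control region, in which transcription of both strands begins, is shown because the mitochondrial mRNAs described here are transcribed from its promoters. The stretch is reference sequence at chrM:377-576 of hg38, plus strand, ending at the base before MT-TF, and no letters are capitalised.
mitochondrial control region: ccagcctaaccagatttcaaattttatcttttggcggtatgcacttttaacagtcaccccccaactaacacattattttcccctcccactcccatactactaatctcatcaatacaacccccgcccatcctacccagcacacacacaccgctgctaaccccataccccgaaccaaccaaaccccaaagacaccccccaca
Nuclear promoters are shown for the 3 genes whose window held the core of the NRF1 binding site, a regulator of nuclear genes for mitochondria. The windows are RefSeq promoters of GRCh38.p14, from 250 bases before to 50 bases after the annotated start, and were available for 9 of the 10 genes. Capitals mark the letters GCGCATGC and CCGGAAG (the core bound by ETS factors such as GABPA) on either strand, where overlapping matches run together.
TFB1M, chr6:155314435-155314734, minus strand: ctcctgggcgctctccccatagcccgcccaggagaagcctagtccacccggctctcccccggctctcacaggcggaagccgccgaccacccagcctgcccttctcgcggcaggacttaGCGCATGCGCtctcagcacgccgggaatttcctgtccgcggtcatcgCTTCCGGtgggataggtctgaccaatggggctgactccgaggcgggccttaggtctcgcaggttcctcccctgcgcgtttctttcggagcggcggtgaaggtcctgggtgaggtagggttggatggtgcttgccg
TFB2M, chr1:246566212-246566511, minus strand: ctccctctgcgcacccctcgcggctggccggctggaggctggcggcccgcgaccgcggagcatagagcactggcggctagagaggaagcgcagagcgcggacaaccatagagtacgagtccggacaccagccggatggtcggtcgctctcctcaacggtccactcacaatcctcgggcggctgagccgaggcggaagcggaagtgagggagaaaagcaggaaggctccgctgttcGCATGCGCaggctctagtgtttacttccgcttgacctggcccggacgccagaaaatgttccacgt
POLRMT, chr19:633488-633787, minus strand: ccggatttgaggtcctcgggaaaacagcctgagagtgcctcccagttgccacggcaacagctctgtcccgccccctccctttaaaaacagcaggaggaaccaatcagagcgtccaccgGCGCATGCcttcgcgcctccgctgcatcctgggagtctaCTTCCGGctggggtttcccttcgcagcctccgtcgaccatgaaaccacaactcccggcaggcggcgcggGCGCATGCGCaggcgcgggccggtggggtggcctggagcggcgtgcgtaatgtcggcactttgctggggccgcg
GCGCATGC stood in 3 of 9 windows (TFB1M, TFB2M and POLRMT) and in 3.27% of all 27305 promoters. CCGGAAG stood in 4 of 9 (TFB1M, POLRMT, POLG2 and SSBP1) and in 10.7% of all promoters. The E-box CACGTG, bound by MYC and related factors, stood in the PPARGC1A window and in 7.43% of all promoters. That window, at chr4:24472856-24473155, lies upstream of the bounds of PPARGC1A in the count table and belongs to a longer transcript. None of these letters stood in the windows of TFAM, POLG and LRPPRC. As described below, 2 of the 3 genes with the NRF1 core were lower in both EZH2i arms and TFB1M did not pass the main test in any comparison. TFAM, POLG, POLG2, SSBP1 and LRPPRC, whose windows lacked that core, were lower in both EZH2i arms as well. A link between motif and change was not tested.

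Libraries held 14133755 to 22276417 counts. Levels are given as CPM, a gene's counts relative to the total of its library after scaling by the trimmed mean of M values (TMM), and changes as log2 fold changes ± SE from edgeR's quasi-likelihood test, with Benjamini-Hochberg adjustment over all 16646 genes. A gene is called at an adjusted p under 0.05. Calls were common: 42.5% of genes tested were called for AKTi against DMSO, 64.1% for EZH2i and 73.2% for the combination. Summed prostate luminal markers (9 genes, among them KLK3 and HOXB13) lay at 3868 to 3974 CPM in DMSO and 5772 to 5911 CPM with AKTi. The sum was 6613 to 6833 CPM with EZH2i and 8297 to 8536 CPM in the combination. Of the 9 genes, 8 were called higher and 1 lower in the combination, beside 38% and 35.2% of all genes. Summed markers of other cell types (10 genes of immune, endothelial and stromal cells) reached 7.82 to 11.4 CPM in DMSO, 25.9 to 27.2 CPM with EZH2i and 17.2 to 23.1 CPM in the combination, with 1 to 5 of the 10 at 0 in an arm. Both marker sums moved with treatment, and their part in the results below was not tested. Scaling libraries by size alone shifted the median log2 fold change of all genes from 0.03 to 0.17 for EZH2i and from 0.06 to 0.26 for the combination, and the EZH2i calls from 5421 higher and 5249 lower to 6630 higher and 4193 lower.

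Most of the machinery was lower once EZH2 was inhibited. With EZH2i alone 8 genes fell and the same 8 fell in the combination, by 0.29 to 1.27 and by 0.64 to 1.25 on the log2 scale. The 8 were TFAM, TFB2M, POLRMT, TWNK, POLG, POLG2, SSBP1 and LRPPRC, and none rose against DMSO. With AKTi alone 4 fell (TFAM, TFB2M, SSBP1 and LRPPRC), by 0.22 to 0.45. The share of all genes called lower was 31.5% for EZH2i, 35.2% for the combination and 21.9% for AKTi, against 8, 8 and 4 of the 10. The median log2 fold change of the 10 genes was -0.24 with AKTi, -0.74 with EZH2i and -0.85 with the combination, beside 0.01, 0.03 and 0.06 over all genes.

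**Figure D1:**
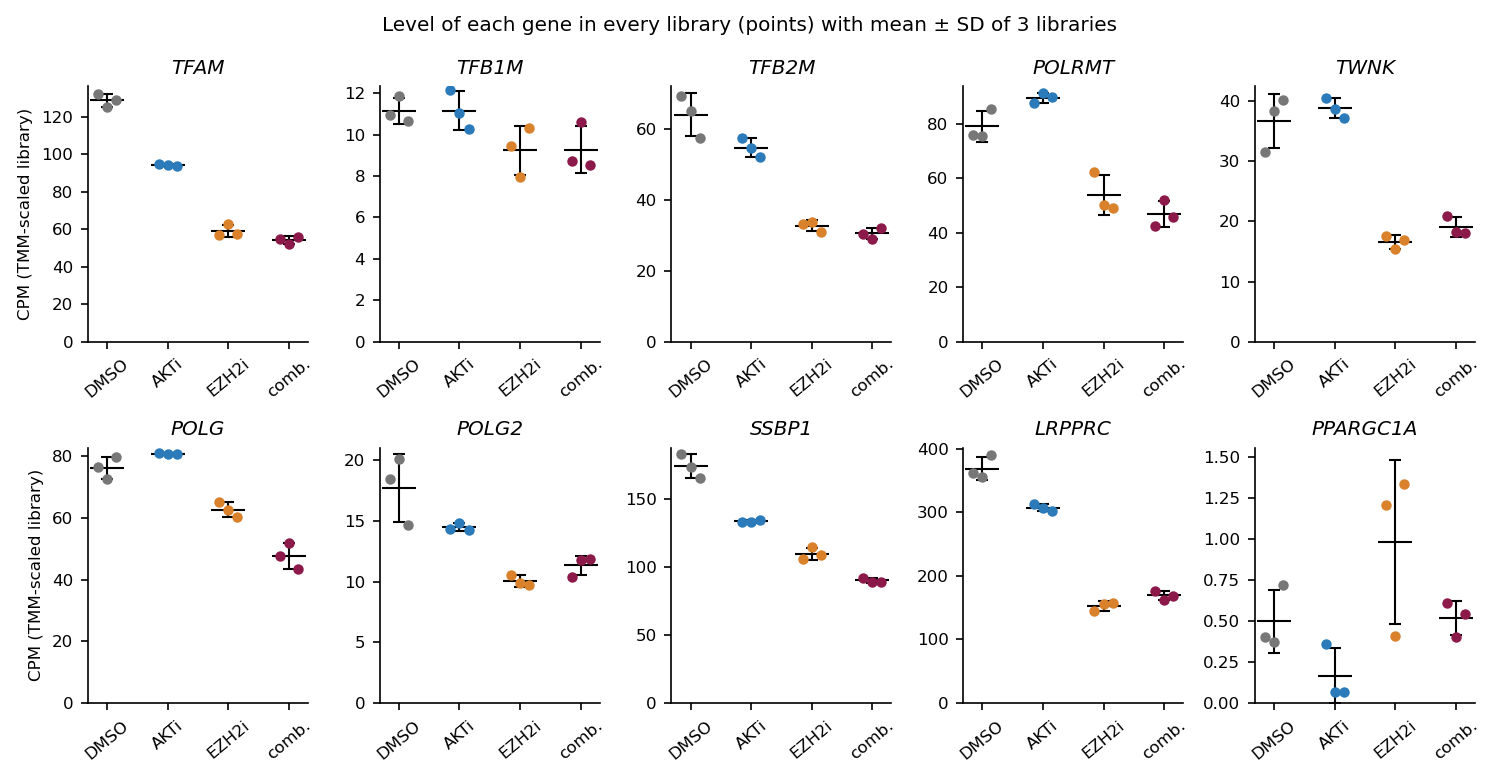
Level of each of the 10 genes (y axis, CPM of the TMM-scaled library, starting at 0) in the 4 arms (x axis, comb. for combination). Points are single libraries and bars are the mean ± SD of 3. TFAM, TFB2M, POLRMT, TWNK, POLG, POLG2, SSBP1 and LRPPRC step down between the AKTi and EZH2i arms without overlap. TFB1M, TWNK, POLG2 and PPARGC1A overlap between DMSO and at least 1 treated arm.

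Among the transcription factors, TFAM showed the largest change in the combination. The gene (chr10:58385022-58399221 of hg38) was at 132, 125 and 129 CPM in the 3 DMSO libraries, 94.9, 94.2 and 93.6 CPM with AKTi, 56.9, 62.9 and 57.5 CPM with EZH2i, and 54.8, 52.0 and 55.9 CPM in the combination. None of the arms overlapped. Against DMSO the log2 fold change was -0.45 ± 0.06 with AKTi (edgeR adjusted p = 8.4e-08), -1.12 ± 0.06 with EZH2i (adjusted p = 2.7e-18) and -1.25 ± 0.06 with the combination (adjusted p = 4.5e-20), a combination level 0.42 times that of DMSO. Although every combination library lay below every EZH2i library, that last step of -0.13 ± 0.06 did not pass the test (adjusted p = 0.10).

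TFB2M (chr1:246540560-246566324), the factor that melts the promoter for POLRMT, followed a similar course. DMSO libraries held 69.4, 65.1 and 57.5 CPM, AKTi libraries 57.4, 54.6 and 52.1 CPM, EZH2i libraries 33.3, 33.8 and 30.9 CPM and combination libraries 30.4, 29.0 and 32.1 CPM. The lowest DMSO library all but met the highest AKTi library, and the EZH2i and combination libraries overlapped below both. TFB2M fell by 0.97 ± 0.08 on the log2 scale with EZH2i (adjusted p = 1.6e-13) and by 1.06 ± 0.08 with the combination (adjusted p = 6.5e-15). The smaller AKTi change of -0.22 ± 0.08 (adjusted p = 0.016) was lost when libraries were scaled by their size alone (-0.16, adjusted p = 0.085) and without DMSO replicate A (-0.16, adjusted p = 0.13).

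TFB1M (chr6:155257509-155314493), a paralog that methylates the small ribosomal RNA, did not share this change. It was detected at 10.7 to 11.9 CPM in DMSO, 10.3 to 12.2 CPM with AKTi, 7.95 to 10.3 CPM with EZH2i and 8.52 to 10.6 CPM in the combination. Every library of both EZH2i arms lay below the DMSO libraries, by 0.26 ± 0.14 on the log2 scale, without passing the test (adjusted p = 0.091 for EZH2i and 0.083 for the combination). The 95% interval of the combination change ran from -0.54 to 0.01. TFB1M passed for EZH2i without EZH2i replicate C (-0.37, adjusted p = 0.042) and for the combination without combination replicate B (-0.37, adjusted p = 0.03). Exons of TFB1M share 30.7% of their bases with TIAM2 on the opposite strand, and how the counting treated strand is not given in the sources used here, so its reads cannot be told apart from those of TIAM2.

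POLRMT (chr19:617224-633604), the RNA polymerase itself, was lower in both EZH2i arms. It stood at 76.1, 75.6 and 85.5 CPM in DMSO and at 87.6, 91.2 and 90.0 CPM with AKTi, so that every AKTi library was above every DMSO library. With EZH2i it stood at 62.3, 50.2 and 49.1 CPM and in the combination at 42.5, 52.1 and 45.9 CPM, 2 ranges that overlap. The AKTi difference was 0.18 ± 0.08 (adjusted p = 0.061), which passed the test when libraries were scaled by size alone (0.24, adjusted p = 0.013). POLRMT fell by 0.56 ± 0.08 with EZH2i (adjusted p = 8.9e-08) and by 0.76 ± 0.08 with the combination (adjusted p = 8.7e-11).

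Of the replication genes, TWNK had the steepest step between the single agents. The helicase gene (chr10:100987367-100994401) was at 31.6, 38.4 and 40.2 CPM in DMSO, 40.7, 38.7 and 37.3 CPM with AKTi, 17.6, 15.4 and 16.95 CPM with EZH2i and 21.0, 18.2 and 18.0 CPM in the combination. DMSO and AKTi overlapped, and both EZH2i arms lay far below them. Its change was 0.08 ± 0.09 with AKTi (adjusted p = 0.53), -1.15 ± 0.10 with EZH2i (adjusted p = 8.1e-13) and -0.95 ± 0.10 with the combination (adjusted p = 4.3e-11). EZH2i against AKTi gave -1.22 ± 0.10 (adjusted p = 4.5e-13), and 1.61% of all genes tested lay lower in that comparison.

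POLG (chr15:89305198-89334861), the catalytic subunit of the polymerase, fell mainly in the combination. Its level was 76.3, 72.5 and 79.7 CPM in DMSO, 80.9, 80.6 and 80.9 CPM with AKTi, 65.1, 62.4 and 60.2 CPM with EZH2i and 47.7, 51.8 and 43.6 CPM in the combination. Each of the last 2 arms was separate from every other arm. POLG changed by 0.08 ± 0.07 with AKTi (adjusted p = 0.34), -0.29 ± 0.07 with EZH2i (adjusted p = 2.8e-04) and -0.68 ± 0.07 with the combination (adjusted p = 3.0e-11). With libraries scaled by size alone the EZH2i change was -0.14 and did not pass (adjusted p = 0.057). Exonic bases of POLG overlap the reading-frame gene POLGARF (9.46%) and FANCI on the opposite strand (5.53%).

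POLG2 (chr17:64477785-64497036), the accessory subunit that holds POLG on its template, was low in both EZH2i arms, whose ranges overlapped. Libraries of DMSO held 18.4, 20.1 and 14.6 CPM, of AKTi 14.3, 14.9 and 14.3 CPM, of EZH2i 10.6, 9.88 and 9.69 CPM and of the combination 10.4, 11.8 and 11.8 CPM. The third DMSO library fell within the AKTi range. POLG2 fell by 0.81 ± 0.12 with EZH2i (adjusted p = 5.1e-07) and by 0.64 ± 0.12 with the combination (adjusted p = 1.8e-05), while the AKTi change of -0.28 ± 0.12 did not pass (adjusted p = 0.062) unless DMSO replicate C was left out (-0.41, adjusted p = 0.0092). Counts of POLG2 per 100 counts of POLG were 23.4 ± 4.7 in DMSO, 17.9 ± 0.44 with AKTi, 16.1 ± 0.22 with EZH2i and 23.9 ± 2.9 with both agents (SD over 3 libraries). Every EZH2i value was below every combination value (exact permutation test, two-sided, p = 0.1, the smallest that 3 against 3 allow).

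SSBP1 (chr7:141738321-141787922), which coats single-stranded mitochondrial DNA, went down stepwise across the 4 arms. Its values were 183, 174 and 166 CPM in DMSO, 133, 133 and 135 CPM with AKTi, 106, 115 and 109 CPM with EZH2i and 92.3, 89.2 and 89.1 CPM in the combination, with no overlap between any arms. It fell by 0.38 ± 0.06 with AKTi (adjusted p = 5.9e-07), by 0.67 ± 0.06 with EZH2i (adjusted p = 5.4e-13) and by 0.95 ± 0.06 with the combination (adjusted p = 1.6e-17).

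LRPPRC (chr2:43886508-43996005), the mRNA stability factor, was lower in both EZH2i arms. It was measured at 362, 355 and 390 CPM in DMSO, 313, 307 and 302 CPM with AKTi, 144, 156 and 157 CPM with EZH2i and 177, 162 and 169 CPM in the combination. Here the order of the last 2 arms turned, with every combination library above every EZH2i library. Against DMSO it changed by -0.26 ± 0.05 (adjusted p = 1.1e-04), -1.27 ± 0.05 (adjusted p = 4.1e-21) and -1.12 ± 0.05 (adjusted p = 4.1e-20) with AKTi, EZH2i and the combination.

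PPARGC1A (chr4:23755041-23904089), the coactivator known for driving mitochondrial biogenesis in muscle and brown fat, was near the limit of detection. DMSO libraries held 6, 5 and 15 counts, AKTi libraries 5, 1 and 1, EZH2i libraries 18, 7 and 29 and combination libraries 12, 7 and 9. No comparison with DMSO passed the test, with log2 fold changes of -1.60 ± 0.79 (adjusted p = 0.074), 0.93 ± 0.54 (adjusted p = 0.12) and 0.02 ± 0.58 (adjusted p = 0.98) in the same order of arms. It was higher with EZH2i than with AKTi by 2.53 ± 0.75 (adjusted p = 1.6e-03), a difference that rests on AKTi counts of 1 to 5. No AKTi library reached the filter's minimum count of 10, so the gene entered the test through other arms, EZH2i among them. The call is therefore no support for a difference between the single agents. A change at this depth is set by single reads.

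**Figure D2:**
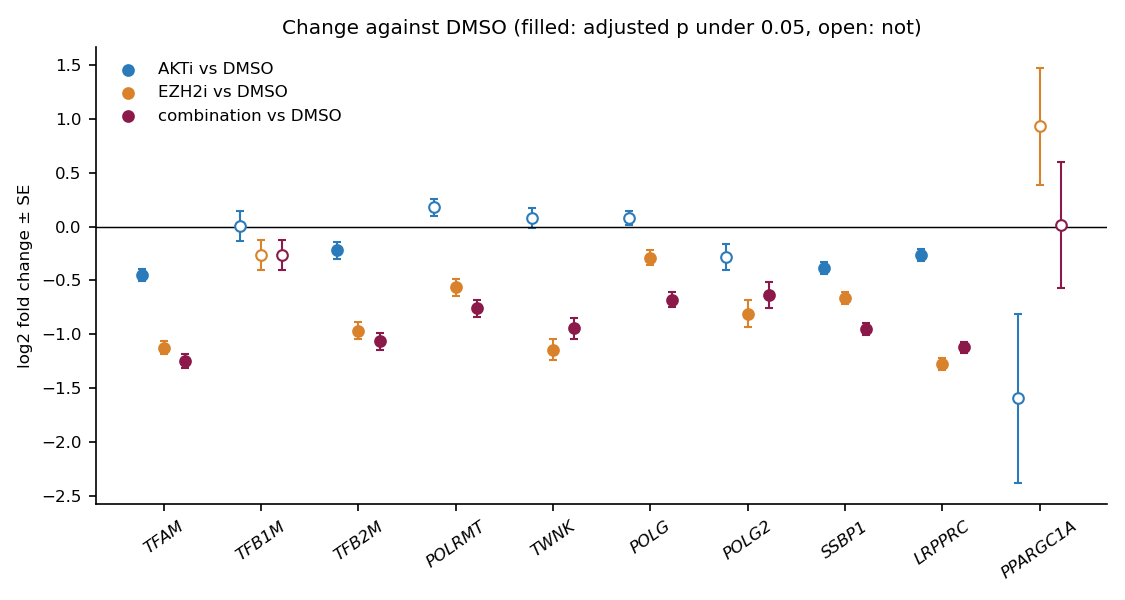
Log2 fold change against DMSO (y axis) of each gene (x axis) with AKTi, EZH2i and the combination. Bars are the SE of the edgeR fit over 12 libraries, and open symbols did not pass an adjusted p of 0.05. TFAM, TFB2M, POLG2, SSBP1 and LRPPRC lie below 0 in all 3 arms (POLG2 with an open symbol for AKTi), POLRMT, TWNK and POLG lie below 0 with EZH2i and the combination, and PPARGC1A has the widest error.

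Directly compared, the single agents differed for most of the set. With EZH2i, 8 genes were lower than with AKTi and 1 (PPARGC1A) was higher, where 25.1% of all genes were called lower and 50.4% were called in either direction. The differences of the 8 ran from -0.28 for SSBP1 to -1.22 for TWNK. Against AKTi the combination was lower for the same 8 genes and higher for PPARGC1A (1.61 ± 0.78, adjusted p = 0.048), beside 32.1% of all genes called lower and 64.2% called in all. The PPARGC1A call for the combination against AKTi was lost with DESeq2 (adjusted p = 0.058) and held in 3 of 12 refits without 1 library. Both PPARGC1A calls carry the limit of the filter given above. The POLG2 call for the combination against AKTi (-0.36 ± 0.13, adjusted p = 0.013) was lost when libraries were scaled by size alone (-0.22, adjusted p = 0.13).

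Adding AKTi to EZH2i moved fewer genes. Relative to EZH2i alone, 3 were lower in the combination, beside 25.7% of all genes called lower and 46.7% called in all. A count this near the share over all genes is no result about the set, and the genes are described singly. These were POLG (-0.39 ± 0.07, adjusted p = 1.0e-05), SSBP1 (-0.28 ± 0.06, adjusted p = 8.1e-05) and POLRMT (-0.20 ± 0.08, adjusted p = 0.043). LRPPRC was higher (0.15 ± 0.06, adjusted p = 0.024). The POLRMT and LRPPRC differences were both lost without EZH2i replicate A (POLRMT -0.09, adjusted p = 0.40; LRPPRC 0.11, adjusted p = 0.11) and without combination replicate A (POLRMT -0.13, adjusted p = 0.25; LRPPRC 0.12, adjusted p = 0.13), so that POLG and SSBP1 remained lower.

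Whether the effects of both agents added up was asked with an interaction term, the combination change less the sum of the single-agent changes. It passed the test for 4 of the 10 genes, beside 28.2% of all genes. In a set of 10 this count is too near that share to be a result about the set. POLG (-0.47 ± 0.10, adjusted p = 2.0e-04) and POLRMT (-0.38 ± 0.11, adjusted p = 0.0097) were lower in the combination than the sum of the single changes. TFAM (0.33 ± 0.09, adjusted p = 0.0039) and LRPPRC (0.41 ± 0.08, adjusted p = 6.9e-05) were higher than that sum. The POLRMT term narrowly missed the threshold without DMSO replicate B (-0.31, adjusted p = 0.058) or without EZH2i replicate A (-0.26, adjusted p = 0.051).

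Levels were compared between genes per length. The order below depends on the lengths given with the counts, an error that the SD between libraries does not measure. For LRPPRC that length was 9760 bases, against 34689 exonic bases in the GENCODE annotation. On the scale of CPM per kilobase of that length, LRPPRC (37.8 ± 1.9), SSBP1 (34.95 ± 1.8) and TFB2M (34.6 ± 3.3) were highest in DMSO, with SDs (n = 3) that overlapped. TFAM followed at 23.0 ± 0.65, then POLRMT at 15.4 ± 1.1, POLG at 12.7 ± 0.61 and TWNK at 8.89 ± 1.1. POLG2 (5.23 ± 0.82) and TFB1M (4.08 ± 0.23) were lowest of the 9, and PPARGC1A was at 0.046 ± 0.018. In the combination SSBP1 (18.1 ± 0.36), LRPPRC (17.3 ± 0.74) and TFB2M (16.5 ± 0.85) stayed ahead of TFAM (9.67 ± 0.36) and POLRMT (9.14 ± 0.94), whose SDs overlapped.

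Transcripts of the mitochondrial genome moved the other way. Genes of the mitochondrial chromosome took 2.42%, 3.36% and 2.37% of counts in the DMSO libraries, 3.93%, 4.29% and 4.08% with AKTi, 4.93%, 5.31% and 4.35% with EZH2i and 5.58%, 5.64% and 5.14% in the combination. Every treated library was above every DMSO library (p = 0.1 for each arm by two-sided exact permutation, the smallest possible), and DMSO replicate B stood above the other two of its arm. All 13 mitochondrial mRNAs were called higher with AKTi, with EZH2i and with the combination, where 20.6%, 32.6% and 38% of all genes were called higher. Their median log2 fold change was 0.46, 0.63 and 0.55 in that order, and 0.66, 0.79 and 0.74 without DMSO replicate B, with all 13 called in each. The AKTi call of MT-ATP8 (0.38 ± 0.13, adjusted p = 0.017) was lost with DESeq2 (adjusted p = 0.14), without DMSO replicate A or C (adjusted p = 0.11 each) and without AKTi replicate B (0.18, adjusted p = 0.31). Nuclear copies of mitochondrial DNA can share reads with these genes, and how such reads were counted is not given in the sources used here.

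**Figure D3:**
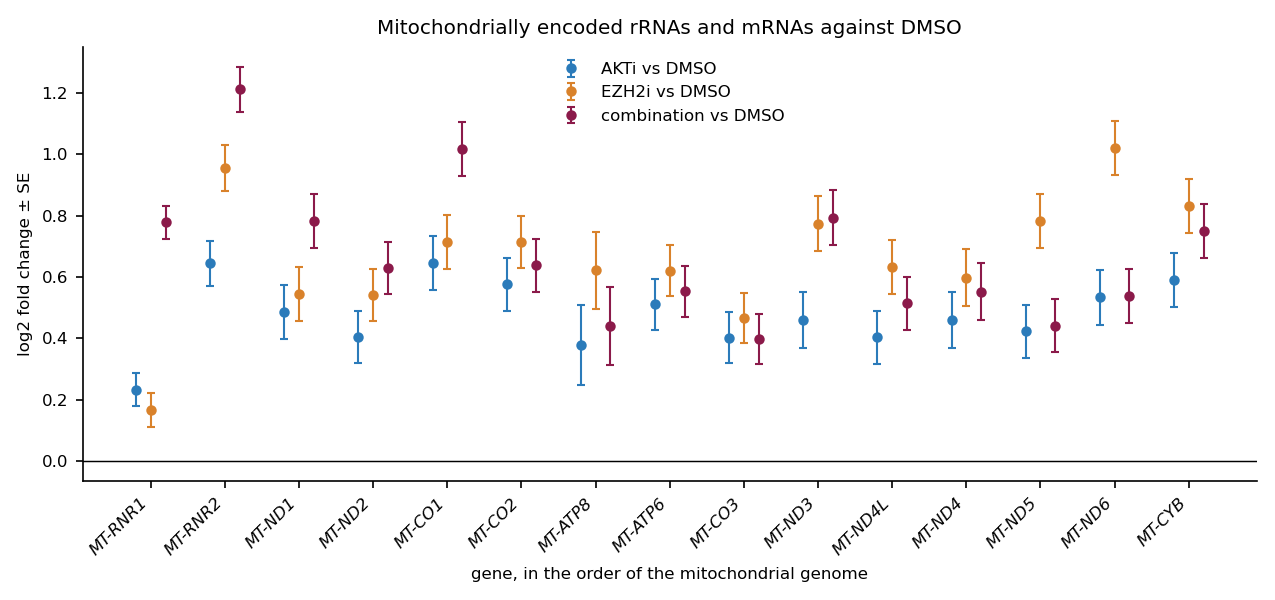
Log2 fold change against DMSO ± SE (y axis) of the mitochondrial rRNAs and mRNAs (x axis, in genome order) for AKTi, EZH2i and the combination. All values lie above 0. MT-RNR2 and MT-CO1 are highest in the combination, and MT-ND6 and MT-ND5 are higher with EZH2i than in the combination.

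The size of the rise differed between mitochondrial genes. MT-CO1, the catalytic subunit of cytochrome c oxidase, rose most among mRNAs in the combination, from 5638, 8182 and 5512 CPM in DMSO to 13560, 13650 and 11920 CPM (1.02 ± 0.09, adjusted p = 1.0e-12). MT-CO3, another subunit of that enzyme, rose least, from 2646, 3637 and 2633 CPM to 4065, 4076 and 3610 CPM (0.40 ± 0.08, adjusted p = 5.2e-05). The highest DMSO library of MT-CO3 was above the lowest combination library. MT-ND6, a complex I subunit and the mRNA encoded on the other strand, stood at 326, 480 and 325 CPM in DMSO, 502, 597 and 534 CPM with AKTi, 781, 828 and 684 CPM with EZH2i and 566, 549 and 524 CPM in the combination. Its rise was 0.53 ± 0.09 with AKTi, 1.02 ± 0.09 with EZH2i and 0.54 ± 0.09 with the combination, and EZH2i exceeded the combination (adjusted p = 1.8e-05). MT-ND6 counts can hold reads of the opposite strand if strand was not used in the counting.

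Both ribosomal RNAs were higher in every combination library than in any other library, as was MT-CO1. MT-RNR2, the large ribosomal RNA, rose by 0.64 ± 0.07 with AKTi, 0.96 ± 0.07 with EZH2i and 1.21 ± 0.07 with the combination (adjusted p = 5.7e-17). MT-RNR1, the small one, was at 1227, 1321 and 1152 CPM in DMSO, 1402, 1481 and 1465 CPM with AKTi and 1432, 1418 and 1301 CPM with EZH2i, and then at 2156, 2110 and 2081 CPM in the combination. The combination exceeded EZH2i by 0.26 ± 0.07 for MT-RNR2 (adjusted p = 0.0044) and by 0.61 ± 0.05 for MT-RNR1 (adjusted p = 6.0e-12). The MT-RNR2 difference was lost with DESeq2 (0.25, adjusted p = 0.073) and without EZH2i replicate C (0.18, adjusted p = 0.062). Both rRNAs together amounted to 25.6 ± 2.1 counts per 100 mitochondrial mRNA counts in DMSO, 26.1 ± 1.0 with AKTi, 28.3 ± 0.48 with EZH2i and 33.9 ± 1.4 with both agents (SD over 3 libraries). Since these libraries were selected for poly(A), the yield of rRNAs and tRNAs follows their short tails as well as their abundance. Yield of the mitochondrial mRNAs depends on their tails too, and tail length was not measured.

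Short tRNAs were poorly covered: 14 of 22 were tested, and MT-TF held 0 to 3 counts in a library. In the combination 5 were called higher and none lower, beside 38% of all genes called higher. The largest estimates were those of MT-TD (2.11 ± 0.53, with 4 to 36 counts in a library), MT-TY (1.70 ± 0.16), MT-TN (1.60 ± 0.08) and MT-TC (1.41 ± 0.09). At 5 of 14 beside 38%, this count is no result about the tRNAs as a group. MT-TD, MT-TY, MT-TN and MT-TC were also higher in every combination library than in any other library. How many of all genes separate so was not counted. DMSO libraries held 4 to 8 counts of MT-TD, below the filter's minimum count of 10, so it entered the test through arms where it was higher. Neither the call nor the separation of MT-TD is therefore support for a rise. Estimates of 9 of the 14 were below 0, and the median was -0.12. With single agents 1 tRNA each was called lower, MT-TT with AKTi (-1.60 ± 0.69, adjusted p = 0.046, with 1 to 16 counts in a library) and MT-TV with EZH2i (-1.17 ± 0.37, adjusted p = 0.0055, with 10 to 42 counts). AKTi libraries held 1 to 6 counts of MT-TT, below the filter's minimum count of 10, so it entered the test through other arms. The MT-TT call is therefore no support for a fall with AKTi. Called higher were 4 with AKTi and 3 with EZH2i, beside 20.6% and 32.6% of all genes. Of all genes, 21.9% and 31.5% were called lower in these comparisons. MT-TY, MT-TN and MT-TC lie beside MT-CO1 on the opposite strand. MT-TP, with 479 to 734 counts in a library, changed by -0.21 ± 0.11 (adjusted p = 0.089).

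Between treated arms fewer mitochondrial mRNAs were called. The combination exceeded AKTi for 4 of 13 (median 0.09), beside 32.1% of all genes called higher. EZH2i exceeded AKTi for 5 of 13 (median 0.14), beside 25.4% of all genes. In the combination 2 were higher than with EZH2i (MT-CO1 and MT-ND1) and 2 lower (MT-ND5 and MT-ND6), beside 21.1% and 25.7% of all genes. Numbers this near the shares over all genes are no result about the mitochondrial mRNAs as a group. These counts changed with the tool and the scaling. The interaction was below 0 for all 13 and passed the test for 12, where 17.5% of all genes were called below 0, whereas that of MT-RNR1 was above 0 (0.38 ± 0.08, adjusted p = 2.0e-04).

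**Figure D4:**
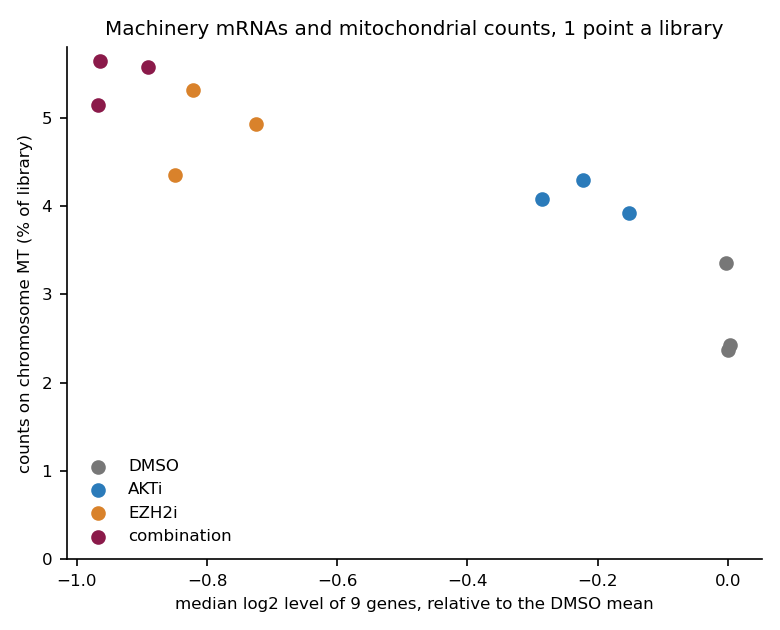
Share of each library's counts on the mitochondrial chromosome (y axis, percent, from 0) against the median log2 level of the 9 machinery genes other than PPARGC1A, relative to their DMSO mean (x axis). Each point is 1 of 12 libraries. DMSO libraries lie at about 0 and 2.37% to 3.36%, AKTi at -0.15 to -0.29, EZH2i at -0.72 to -0.85 and combination libraries at -0.89 to -0.97 and 5.14% to 5.64%.

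The machinery mRNAs and the mitochondrial mRNAs were set side by side in each library. Median levels of the 9 expressed machinery genes ran from -0.15 to -0.29 in AKTi libraries and from -0.72 to -0.97 in libraries of the 2 EZH2i arms, relative to the DMSO mean on the log2 scale. Median levels of the mitochondrial mRNAs on the same scale ran from 0.42 to 0.61 with AKTi, 0.48 to 0.81 with EZH2i and 0.53 to 0.67 in the combination. The treated arms were thus apart in the machinery median, with the combination lowest and AKTi highest, and overlapped in the mitochondrial mRNA median. In the share of counts on the mitochondrial chromosome, which includes the rRNAs, AKTi libraries (3.93% to 4.29%) lay below EZH2i libraries (4.35% to 5.31%), and the EZH2i and combination ranges overlapped. The share of counts on the rRNAs alone separated the treated arms, at 0.816% to 0.862% with AKTi, 0.968% to 1.16% with EZH2i and 1.32% to 1.42% in the combination. Libraries of the same arm share their treatment, so no correlation is given over the 12 points.

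Other genes of mitochondrial DNA maintenance were lower too. From a list of 13 replication and repair genes, 12 were called lower in the combination and none higher, with a median of -1.15. Of all genes, 35.2% were called lower in that comparison. The largest falls were those of the nuclease and helicase DNA2 (-3.42 ± 0.15), from 34.6 ± 0.96 CPM in DMSO to 3.23 ± 0.11 CPM, of the uracil glycosylase UNG (-1.69 ± 0.06) and of RNASEH1 (-1.45 ± 0.10), which removes RNA primers. All 3 of these proteins also act in the nucleus. TOP1MT, the mitochondrial topoisomerase, was not called (-0.08 ± 0.09, adjusted p = 0.40). AKTi lowered 7 of the 13 and raised TOP1MT (0.57, adjusted p = 1.6e-06), and EZH2i lowered all 13, beside 21.9% and 31.5% of all genes called lower.

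Genes for the synthesis, cutting and decay of mitochondrial RNA were mostly lower. Of 22, 21 were called lower and 1 higher in the combination (median -1.13), 21 were lower with EZH2i, and 16 were lower and 1 higher with AKTi. Of all genes, 35.2% were called lower in the combination, 31.5% with EZH2i and 21.9% with AKTi. The decay enzyme PNPT1 fell most (-2.27 ± 0.08), from 94.9 ± 2.6 to 19.7 ± 0.32 CPM. SLIRP, the partner of LRPPRC, fell by 2.11 ± 0.10 from 129 ± 18 to 29.9 ± 2.0 CPM, and TRMT10C, a subunit of the RNase P that frees tRNA ends, fell by 1.82 ± 0.07. REXO2, which clears the shortest RNA fragments, was the exception and rose (0.30 ± 0.06, adjusted p = 1.5e-05).

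Genes of nucleotide supply were called in both directions. Of 14 genes, 8 were lower and 4 higher in the combination, beside 35.2% and 38% of all genes. RRM2, the ribonucleotide reductase subunit of dividing cells, fell by 5.10 ± 0.10, from 178 ± 5.1 to 5.195 ± 0.20 CPM, more than the sum of its single-agent changes (interaction -2.24, adjusted p = 8.9e-18). RRM1 (-1.56 ± 0.06) and the pyrimidine carrier SLC25A33 (-1.55 ± 0.07) followed. Thymidine phosphorylase TYMP (1.43 ± 0.11), the carrier SLC25A36 (0.58 ± 0.06) and the mitochondrial thymidine kinase TK2 (0.38 ± 0.08) rose. SLC25A36 was lower with each single agent (-0.43 with AKTi, -0.95 with EZH2i) and higher with both, with an interaction of 1.97 (adjusted p = 3.2e-20).

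**Figure D5:**
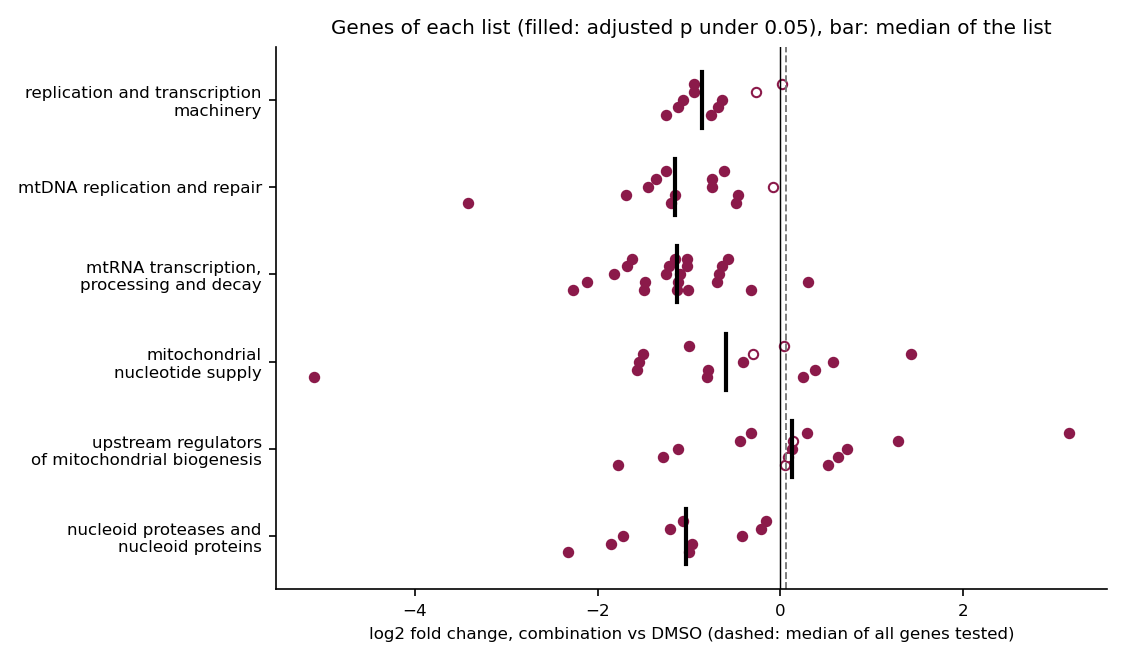
Log2 fold change of the combination against DMSO (x axis) for the genes of each list (rows). Filled points passed an adjusted p of 0.05, bars are list medians and the dashed line is the median of all genes, 0.06. Replication and repair, RNA processing and nucleoid genes lie almost wholly below 0, and the regulators lie on both sides.

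Upstream regulators of mitochondrial biogenesis were called in both directions, in numbers near those over all genes. In the combination 7 of 15 were higher and 5 lower, beside 38% and 35.2% of all genes. The coactivators PPARGC1B (-1.77 ± 0.12) and PPRC1 (-1.28 ± 0.07), relatives of PPARGC1A, and GABPB1 (-1.12 ± 0.09), a subunit of the ETS factor GABP, fell most. ESRRG (3.16 ± 0.80), an orphan nuclear receptor with 0 to 3 counts in DMSO and 10 to 24 in combination libraries, PPARA (1.29 ± 0.09) and SIRT1 (0.73 ± 0.08) rose most. No DMSO library of ESRRG reached the filter's minimum count of 10, so it entered the test only through arms where it was higher. PPARGC1B and PPRC1 were already lower with EZH2i (-1.45 and -1.18). NRF1 and MYC, named after their values were seen because of the motifs above, differed between arms: NRF1 was at 22.7 ± 1.3 CPM in DMSO, 16.8 ± 1.6 with AKTi, 16.1 ± 1.6 with EZH2i and 24.1 ± 1.3 in the combination, and MYC at 247 ± 7.1, 404 ± 16, 95.4 ± 6.2 and 198 ± 7.8 CPM.

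Nucleoid proteins and the proteases around them were lower as a list, with 10 of 10 called lower in the combination and a median of -1.03. Of all genes, 35.2% were called lower there. The membrane ATPases ATAD3B (-2.32 ± 0.10) and ATAD3A (-1.85 ± 0.07), near-identical copies whose reads may be shared, and the prohibitin gene listed as PHB (-1.72 ± 0.06) fell most. LONP1, the protease that degrades TFAM, was also among the 10, with -1.06 ± 0.06 (adjusted p = 1.4e-17), and was named after its value was seen.

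Genes with the most similar pattern were sought by the root mean square difference of the 3 log2 fold changes against DMSO. Out of 11524 other protein-coding genes, CEP83 (0.022), PINX1 (0.028) and SUPV3L1 (0.047) were nearest to TFAM, and ZNHIT2 (0.026), SMARCD2 (0.027) and P3H4 (0.031) to POLG. KRT80 (0.14), EPS8 (0.27) and TNFSF10 (0.35) were nearest to PPARGC1A, whose own changes carry SEs of 0.54 to 0.79. The measure spans 3 comparisons that share the DMSO libraries.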

How the data were processed

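RNA from C4.2B cells in 4 arms of 3 libraries was sequenced as polyadenylated RNA. The authors aligned reads to hg38 with STAR and made the deposited counts with HTSeq (versions, annotation and strand setting are not given in the sources used here). A second deposited table of the authors' normalized values was not used. Which libraries were sequenced at which of the study's sequencing providers is not given in the sources used here, so no batch could be examined. Libraries were grouped by their labels, and replicates of an arm differed beyond sampling noise (chi-square per gene 2.53 to 7.50).

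Raw counts of 58735 genes were analysed with edgeR 4.0.16 in R 4.3.3. Genes passed filterByExpr (minimum count 10, minimum total 15), libraries were scaled by TMM, and a quasi-likelihood model with 1 mean per arm over all 12 libraries gave 6 pairwise comparisons and an interaction, adjusted by Benjamini-Hochberg over 16646 genes (threshold 0.05). SEs and 95% intervals come from that fit. Log2 CPM used a prior count of 2. Depth was 14133755 to 22276417 counts. The test was also run on simulated counts. As alternatives, DESeq2 1.42.0 was run and libraries were scaled by size, by upper quartile or by TMM without the mitochondrial chromosome, with other filters, with only the arms compared, with a replicate block and without each library in turn. Shares of counts were compared by exact permutation (smallest two-sided p with 3 against 3, 0.1).

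The genes, the 5 wider lists and the tests were chosen with earlier results of these data known. Named genes were the 10 genes, the mitochondrial mRNAs of highest and lowest change in the combination with MT-ND6 and both rRNAs, and up to 3 called genes per direction and list. Promoter windows came from RefSeq (GRCh38.p14) and exon overlaps from GENCODE annotation of hg38. A marker gene of the cell type check is not reported here.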

Additional observations from a re-analysis of the deposited data

Results flagged for a closer look

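Results listed here are those in which the effect of AKTi differed with and without EZH2i by the interaction term of the edgeR fit (adjusted p under 0.05), each on the log2 scale as the combination change less the sum of the single-agent changes. Arms of 3 libraries are too small for a test of single outlying samples.

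Among the machinery genes the term was 0.33 for TFAM and 0.41 for LRPPRC, and -0.38 for POLRMT and -0.47 for POLG. AKTi alone gave -0.45 for TFAM and -0.26 for LRPPRC, but its addition to EZH2i gave -0.13 and 0.15. For POLG and POLRMT AKTi alone gave 0.08 and 0.18, neither of which passed the test, and its addition to EZH2i gave -0.39 and -0.20.

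Among mitochondrial transcripts the term was -1.02 for MT-ND6, -0.76 for MT-ND5, -0.67 for MT-CYB, -0.65 for MT-CO2, -0.58 for MT-ATP6 and -0.56 for MT-ATP8. It was -0.52 for MT-ND4L, -0.51 for MT-ND4, -0.47 for MT-CO3, -0.44 for MT-ND3, -0.34 for MT-CO1 and -0.32 for MT-ND2. The large ribosomal RNA MT-RNR2 had -0.39 and the small one, MT-RNR1, had 0.38. With DESeq2, 5 of the 13 mRNAs passed instead of 12, and MT-RNR2 did not pass (-0.38, adjusted p = 0.07).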

How the results depend on the processing

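Of 543 refits of single machinery genes under other settings, 521 left the call and its direction as they were, 14 lost a call and 8 gained one. Of 840 refits without 1 library, 804 left it, 21 lost a call and 15 gained one. No call changed direction, and sign changes of uncalled genes were not counted. For 42 other named genes no call changed direction either, and every call of the combination against DMSO was kept. These 42 did not include MYC, NRF1, LONP1, TOP1MT, MT-TP, MT-TT and MT-TV, whose calls were not followed under other settings. The cause of the changes below was not tested. The median change of the mitochondrial mRNAs in the combination was 0.75 when libraries were scaled by size alone. Without 1 library it ranged from 0.465 to 0.74, and that of AKTi from 0.37 to 0.66. Of the mitochondrial mRNAs, the number called for the combination against AKTi was 1 with DESeq2, 9 by library size and 7 by upper quartile. Against EZH2i it was 1 with DESeq2 and 2 to 5 without 1 library. For EZH2i against AKTi it was 2 with DESeq2, 10 by library size and 3 to 6 without 1 library, and for the interaction 5 with DESeq2. Machinery genes called for the combination against EZH2i numbered 2 to 5 without 1 library. The rise in the mitochondrial share of counts was 1.61 percentage points for EZH2i and 1.89 for the combination over mRNAs alone, and 2.01 for the combination when mRNAs were set against protein-coding counts.

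Libraries with the same letter did not deviate together (correlations from -0.058 to 0.069 over 18 pairs), so the letters do not pair them. With a replicate block, 4, 8 and 8 machinery genes were called for AKTi, EZH2i and the combination against DMSO, as without it, and 12146 genes in all for the combination. The block moved MT-ND1 past the threshold for the interaction (-0.26, adjusted p = 0.017). Depth limited PPARGC1A (1 to 29 counts a library) and most tRNAs.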

Other observations

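Ratios within the mitochondrial transcripts, which do not depend on how libraries are scaled, also differed between arms. Counts of the small rRNA MT-RNR1 per 100 counts of the large rRNA MT-RNR2 were 26.9 ± 2.5 in DMSO, 20.02 ± 0.23 with AKTi, 15.5 ± 1.0 with EZH2i and 19.8 ± 0.83 in the combination (SD, 3 libraries each). EZH2i libraries, at 14.3 to 16.2, lay below all others (exact permutation test, two-sided, p = 0.1 against each arm, the smallest that 3 against 3 allow). Counts of MT-ND6 per 100 counts of its neighbour MT-ND5 on the opposite strand were 29.5 ± 1.1, 31.9 ± 0.93, 34.9 ± 1.0 and 31.7 ± 1.6 in the same order. Here EZH2i libraries lay above all others (exact permutation p = 0.1 against each arm), and the combination overlapped DMSO (exact permutation p = 0.3).

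The wider lists were also counted with single agents. AKTi lowered 5 of 10 nucleoid genes and raised 1, and EZH2i lowered 9. In nucleotide supply AKTi lowered 7 of 14 and raised 2, one of them TYMP (0.98, adjusted p = 3.4e-09 by edgeR), and EZH2i lowered 9 and raised 1. Among regulators of biogenesis MYC rose with AKTi (0.71, adjusted p = 3.1e-13) and fell with EZH2i (-1.37, adjusted p = 1.8e-21). Beside these counts, 21.9% of all genes were called lower and 20.6% higher with AKTi, and 31.5% lower and 32.6% higher with EZH2i.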
